A study of Rattus norvegicus with 6 samples.

Results

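Fatty acid uptake, binding and activation were followed in rat liver through 10 genes. They were the fatty acid translocase Cd36, the binding proteins Fabp1, Fabp4 and Fabp5, the transport proteins Slc27a2 and Slc27a4, and the long-chain acyl-CoA synthetases Acsl1, Acsl3, Acsl4 and Acsl5. Every probe set of the array that its annotation gave exactly 1 gene symbol, and whose symbol was among these, was taken. This gave 13 probe sets for 10 genes, of 20826 probe sets with 1 symbol for 14217 genes. Acsl1 had 3 probe sets, Acsl5 had 2, and each of the other 8 genes had 1.

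The livers came from hypercholesterolemic rats in a probiotic group and a high-fat control group, with 3 samples in each. All rats ate a fat-rich diet for 30 d and stayed on it for another 30 d, during which they received 1 ml of saline by gavage each day. The saline carried Lactobacillus casei Zhang, a lactic acid bacterium, for the probiotic rats and nothing for the high-fat rats. Both groups thus shared the diet and the gavage, and no group on a standard diet was part of the series as used here. The strain, sex and age of the rats and whether each sample came from its own animal are not given in the labels used here, so p-values measure the spread between these samples.

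A long-chain fatty acid reaching a hepatocyte crosses the plasma membrane with the help of Cd36 and of transport proteins of the Slc27 family. In the cytosol it is carried by fatty acid-binding proteins, and acyl-CoA synthetases activate it by joining it to coenzyme A, after which it can be oxidised, esterified or built into membranes. Fabp1 is the main binding protein of hepatocytes. Fabp4 is best known from adipocytes, macrophages and capillary endothelium, and Fabp5 from skin and macrophages. Several of these genes are known targets of PPARalpha, a nuclear receptor that pairs with a retinoid X receptor and binds 2 copies of AGGTCA separated by 1 base.

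Of the 10 genes, 8 matched an entry in the RefSeq promoter table of assembly GRCr8, and Fabp4 and Fabp5 did not. The promoters of Fabp1 and Slc27a2 are shown because they held the half-site AGGTCA, and that of Acsl1 as the gene with the most probe sets here, for comparison. Each run is the 250 bases before the transcript start, with matches on either strand to AGGTCA, or to AGGNCA and AGGTCA separated by 1 base, in capitals.
Fabp1, chr4:104749090-104749339, plus strand: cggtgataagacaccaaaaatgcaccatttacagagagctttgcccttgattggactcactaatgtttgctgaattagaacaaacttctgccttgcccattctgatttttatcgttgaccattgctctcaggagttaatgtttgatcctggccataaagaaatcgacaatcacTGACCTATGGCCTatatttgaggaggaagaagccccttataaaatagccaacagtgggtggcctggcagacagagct
Slc27a2, chr3:134257851-134258100, plus strand: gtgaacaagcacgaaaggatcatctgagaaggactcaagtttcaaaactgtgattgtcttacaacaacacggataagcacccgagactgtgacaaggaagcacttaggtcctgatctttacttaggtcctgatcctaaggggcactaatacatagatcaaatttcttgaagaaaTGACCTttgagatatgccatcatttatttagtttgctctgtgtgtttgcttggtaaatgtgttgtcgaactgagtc
Acsl1, chr16:52532393-52532642, minus strand: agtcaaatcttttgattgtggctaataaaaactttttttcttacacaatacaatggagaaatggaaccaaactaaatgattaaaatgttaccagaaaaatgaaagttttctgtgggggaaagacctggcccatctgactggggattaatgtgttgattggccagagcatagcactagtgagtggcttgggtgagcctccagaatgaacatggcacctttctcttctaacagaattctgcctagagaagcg
The half-site AGGTCA, read on either strand, was in 2 of the 8 member windows and in 14.1% of 33469 windows of the same length. In Fabp1 it lay from -77 to -72 relative to the start, inside a match to the pair of AGGNCA and AGGTCA that ran from -77 to -65. That pair was in 0.0866% of all windows, and the stricter pair with AGGTCA on both sides was in 0.0508% of all windows and in 0 of the 8. The single half-site of Slc27a2 lay from -76 to -71, and the window of Acsl1 held none. Acsl3 and Acsl4 differed from these in base composition, with 72.4% and 70.4% G and C, against 43.2% in Fabp1, 40.4% in Slc27a2 and 40% in Acsl1 and a median of 51.2% over all windows. A GC box (GGGCGG, either strand) was present in Acsl3, Acsl4 and Slc27a4 and in 30.5% of all windows. A match describes the letters of the window and is no measurement of binding.

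Signals are given as log2(intensity + 16) after quantile normalization of the 6 arrays, and differences are probiotic minus high-fat on that scale. Correlations between arrays were 0.885 to 0.959. Probiotic sample 2 and high-fat sample 2 stood apart, at -51.6 and 75.5 on a leading component with 35.5% of the variance. Probiotic samples 1 and 3 were at -4.17 and -26.1, and high-fat samples 1 and 3 at 2.95 and 3.37. The component thus also separated the groups, though probiotic sample 1 lay close to high-fat samples 1 and 3. Signal at the 3' end of Actb exceeded that at its 5' end, a gap that grows as RNA degrades. In log2 units it was 2.51 ± 0.504 in probiotic livers and 1.80 ± 0.279 in high-fat livers (SD, n = 3 each, exact permutation p = 0.1, the smallest that 3 against 3 allows). The groups did not overlap, at 2.08 to 3.07 in probiotic and 1.48 to 1.97 in high-fat samples. The gap and the treatment thus cannot be told apart. The largest gap was in probiotic sample 2 and the smallest in high-fat sample 2, the samples at opposite ends of the leading component. For Gapdh the gap was 1.17 ± 0.463 in probiotic livers and 0.594 ± 0.140 in high-fat livers, with overlap (SD, n = 3 each, exact permutation p = 0.2). Of 12 hepatocyte markers listed, 11 were on the array and all 11 passed the signal filter, with a summed signal of 560095 to 573192 in probiotic livers and 557183 to 594520 in high-fat livers. The sum was taken after quantile normalization, which sets probe sets as bright as most of these by their rank on each array. Similar sums are therefore no measure of equal hepatocyte content.

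None of the 10 genes passed the test between probiotic and high-fat livers. Of the 13 member probe sets, 12 passed the signal filter, and 0 of 12 were called higher or lower at an adjusted p under 0.05 (limma with Benjamini-Hochberg adjustment over 18625 probe sets). The percentage called over all probe sets tested was 0.0% higher and 0.0215% lower. The smallest adjusted p of a member was 0.726 and the largest 0.983. At an unadjusted p under 0.05 there were 2 member probe sets, 1 lower (Fabp4) and 1 higher (Acsl1), beside 3.86% lower, 2.99% higher and 6.85% in either direction over all probe sets tested. The 2 groups did not overlap in 3 of 12, with 1 higher (Acsl1) and 2 lower (Fabp4 and the dimmer Acsl5 probe set), beside 6.02% higher, 6.7% lower and 12.7% in either direction over all. Fabp4 is in both counts although it passed the signal filter through its high-fat level, which favours such a result. With the filter at the 60th percentile Fabp4 was not tested, and the groups did not overlap in 2 of 9, beside 13.3% of all probe sets. By the brightest probe set, 6 genes had higher and 4 lower means in probiotic livers, beside 50.5% of all probe sets tested with a difference above 0, and their median difference was 0.025, against 0.00416 over all probe sets tested.

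**Figure D1:**
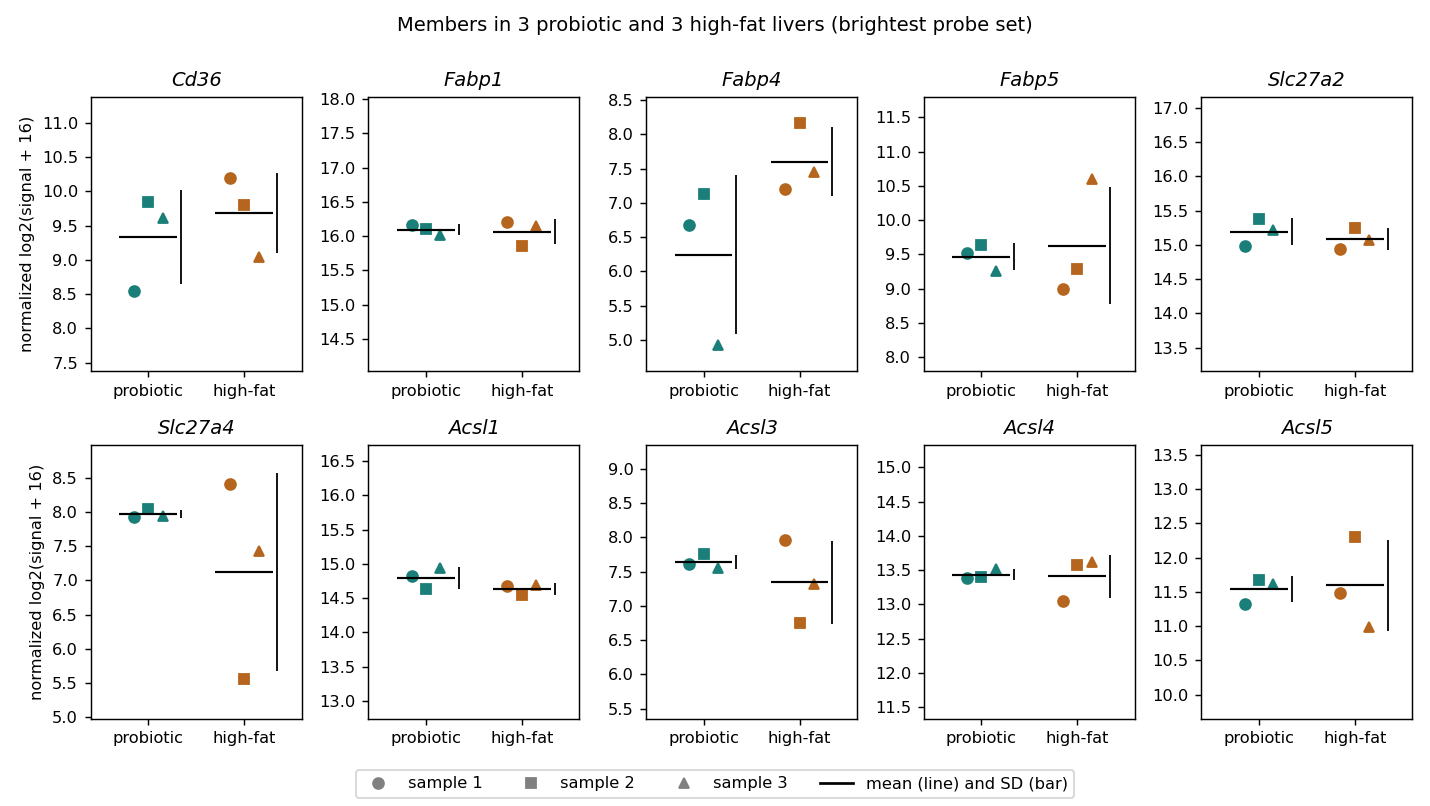
Normalized log2(signal + 16) of the brightest probe set of each of the 10 genes in probiotic (left) and high-fat (right) livers; symbols mark samples 1 to 3, horizontal lines the mean and vertical bars the SD, and every panel spans 4 log2 units. Fabp4 is the gene whose groups do not overlap, and Slc27a4, Acsl3, Fabp5, Acsl4 and Acsl5 have the widest spread in high-fat livers relative to that in probiotic livers.

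The membrane translocase Cd36 had signals of 8.55, 9.84 and 9.62 in probiotic samples 1, 2 and 3, against 10.20, 9.80 and 9.05 in high-fat samples 1, 2 and 3. The groups overlapped, with the lowest value in probiotic sample 1 and the highest in high-fat sample 1. The difference was -0.35 (SE 0.390, 95% interval -1.22 to 0.53, adjusted p = 0.847 with limma). Leaving out probiotic sample 1 gave 0.046 and leaving out high-fat sample 1 gave -0.089, while the Actb gap in the model gave -0.90. A further probe set listed under Cd36 and a second symbol, which the rule left out, differed by 0.22 (SE 0.403, adjusted p = 0.915 with limma). Its signal was again lowest in probiotic sample 1, and it correlated with the Cd36 probe set at r = 0.863 over the 6 arrays, as a description.

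Slc27a2, the very-long-chain acyl-CoA synthetase and fatty acid transporter of liver, had 14.99, 15.38 and 15.22 in the probiotic samples, against 14.94, 15.25 and 15.07 in the high-fat samples. The groups overlapped within a narrow band, and the difference was 0.11 (SE 0.141, 95% interval -0.21 to 0.42, adjusted p = 0.876 with limma). The interval corresponds to 0.864 to 1.34 times the high-fat level on the normalized scale. As deposited, the Slc27a2 intensities were 32767, 37254 and 37107 in the probiotic samples, against 28416, 48595 and 35049 in the high-fat samples. High-fat sample 2 was the highest before normalization and probiotic sample 2 after it. The probe set ranked 73 to 121 on the arrays, so the narrow band in part reflects normalization by rank. The sign turned without normalization between arrays (-0.032) and with the Actb gap in the model (-0.013). Slc27a4, a transporter with acyl-CoA synthetase activity found in many tissues, had 7.92, 8.03 and 7.94 in the probiotic samples, against 8.40, 5.56 and 7.42 in the high-fat samples. The probiotic samples lay close together between high-fat samples 1 and 3, and high-fat sample 2 was far below all others. The mean was 7.97 ± 0.0605 in probiotic livers and 7.13 ± 1.45 in high-fat livers (SD, n = 3 each). They differed by 0.84 (SE 0.608, adjusted p = 0.768 with limma). Leaving out high-fat sample 1 gave 1.48 and leaving out high-fat sample 2 gave 0.056. The difference was 0.023 without both number 2 samples and -0.033 with the Actb gap in the model.

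Among the binding proteins, Fabp1 had the narrowest spread of the 10 genes on the quantile-normalized scale, and Fabp4 had the largest difference. Fabp1 had 16.17, 16.10 and 16.02 in the probiotic samples, against 16.20, 15.85 and 16.14 in the high-fat samples. The groups overlapped, and the difference was 0.030 (SE 0.122, 95% interval -0.25 to 0.30, adjusted p = 0.969 with limma). As deposited, its intensities were 69792, 61789.9 and 66852 in the probiotic samples, against 60121, 85052 and 67442 in the high-fat samples. High-fat sample 2 was the highest before quantile normalization and the lowest after it, since normalization sets such bright probe sets by their rank on the array, which was 28 there and 6 to 16 on the other arrays. Without normalization the difference was -0.086.

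Fabp4, the adipocyte and macrophage binding protein, had 6.68, 7.13 and 4.92 in the probiotic samples, against 7.20, 8.16 and 7.45 in the high-fat samples. Every probiotic sample lay below every high-fat sample, although probiotic sample 2 and high-fat sample 1 were close. The mean was 6.24 ± 1.16 in probiotic livers and 7.60 ± 0.501 in high-fat livers (SD, n = 3 each). The probiotic mean lay below the signal filter at 6.30 on this scale, so the probe set passed through its high-fat level, and no fold is given. The difference was -1.36 (SE 0.584, 95% interval -2.67 to -0.044, unadjusted p = 0.0441, adjusted p = 0.726 with limma), which missed the threshold. The lowest value decided much of its size: leaving out probiotic sample 3 gave -0.70 and leaving out probiotic sample 2 gave -1.80. It was -0.90 with a pseudocount of 64 and -1.70 with a pseudocount of 1, since the probe set was dim. As deposited, the Fabp4 intensities were 88.8, 119.2 and 13.2 in the probiotic samples, against 136.7, 291.8 and 136.2 in the high-fat samples, and the signal filter lay at 62.8.

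In a piece of liver, fewer cells of a type and less RNA per cell cannot be told apart. Markers of the cells known for Fabp4 did not all run the same way. Of 12 Kupffer cell and macrophage markers tested, 0 had higher and 12 had lower means in probiotic livers, with a median difference of -0.34. Their summed signal was 18503 to 21399 in the probiotic samples, against 21271 to 28008 in the high-fat samples. Of 11 endothelial markers tested, 6 were higher and 5 lower (median 0.029), and their summed signal was 7644 to 12613 in the probiotic samples, against 9394 to 9945 in the high-fat samples. Of 6 adipocyte markers tested, 4 were higher and 2 lower (median 0.26), and their summed signal was 3087 to 4763 in the probiotic samples, against 3297 to 4611 in the high-fat samples. Cidec, also listed here among the lipid droplet genes, had the highest signal of the 6, with means of 11.22 in probiotic livers and 11.43 in high-fat livers. The sum is therefore no measure of adipocytes alone. No marker of these 3 lists was called. Adipoq, Lep and Adrb3, which define adipocytes, were below the signal filter. Adipoq had deposited intensities of 9.3, 7.7 and 62.3 in the probiotic samples, against 36.9, 155.0 and 33.2 in the high-fat samples. Adipoq and Fabp4 were both highest in high-fat sample 2, while among the probiotic samples Adipoq was highest in sample 3, where Fabp4 was lowest. The mean normalized signal was 27.3 in probiotic livers and 67.2 in high-fat livers for Adipoq, 13.04 in probiotic livers and 42.3 in high-fat livers for Adrb3, and 17.4 in probiotic livers and 10.1 in high-fat livers for Lep. The part of these cell types in the Fabp4 difference was not tested.

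Fabp5, the epidermal-type binding protein, had 9.52, 9.63 and 9.25 in the probiotic samples, against 8.995, 9.28 and 10.60 in the high-fat samples. High-fat sample 3 was above all others and the rest of the groups overlapped. The difference was -0.16 (SE 0.381, adjusted p = 0.944 with limma), and without high-fat sample 3 it was 0.32.

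**Figure D2:**
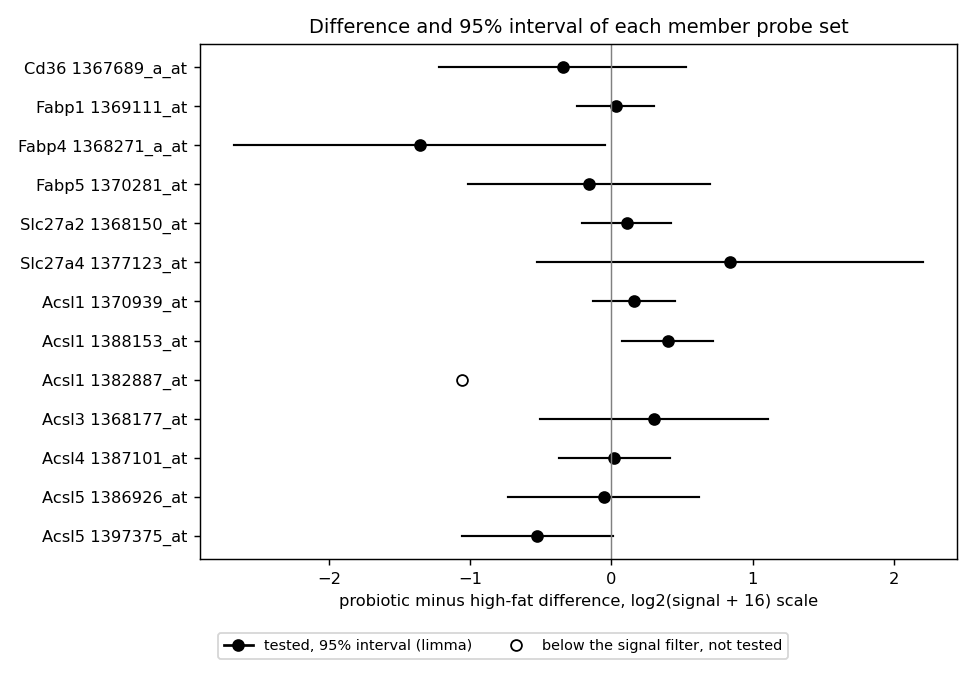
Probiotic minus high-fat difference of each of the 13 member probe sets on the log2(signal + 16) scale, with 95% intervals from limma for the 12 tested; the open point was below the signal filter. The intervals of Fabp4 and of Acsl1 probe set 1388153_at exclude 0 before adjustment, on opposite sides.

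Where a synthetase had several probe sets, these did not always have the same sign. Acsl1, the main long-chain acyl-CoA synthetase of liver and fat tissue, was read by 2 bright probe sets. The brightest (1370939_at) had 14.82, 14.63 and 14.94 in the probiotic samples, against 14.68, 14.54 and 14.70 in the high-fat samples. The groups overlapped through probiotic sample 2, and the difference was 0.16 (SE 0.129, adjusted p = 0.790 with limma). The other (1388153_at) had 14.80, 14.58 and 15.02 in the probiotic samples, against 14.43, 14.30 and 14.48 in the high-fat samples, and every probiotic sample was above every high-fat sample. Its mean was 14.80 ± 0.218 in probiotic livers and 14.40 ± 0.0951 in high-fat livers (SD, n = 3 each). The difference was 0.40, or 1.32-fold higher (SE 0.143, 95% interval 0.078 to 0.72, unadjusted p = 0.0201, adjusted p = 0.726 with limma). It remained above 0 under all 18 alternatives, between 0.29 and 0.52, and passed the adjusted threshold under none. Over the 6 arrays these 2 Acsl1 probe sets correlated at r = 0.943. One more probe set (1382887_at) was too dim to pass the signal filter, with deposited intensities of 4.9, 2.7 and 8.4 in the probiotic samples, against 43.3, 38.1 and 12.5 in the high-fat samples. Its groups did not overlap and ran the other way from the bright probe sets, at -1.06, and its fold is not given because both groups were near the floor of the scale.

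Acsl3, a synthetase of the endoplasmic reticulum and lipid droplets, had 7.61, 7.75 and 7.55 in the probiotic samples, against 7.96, 6.74 and 7.32 in the high-fat samples. The probiotic samples again lay between the high-fat extremes, and the difference of 0.30 (SE 0.359, adjusted p = 0.858 with limma) was -0.061 without both number 2 samples. Acsl4, which prefers arachidonic acid, had 13.38, 13.39 and 13.52 in the probiotic samples, against 13.05, 13.57 and 13.62 in the high-fat samples. The difference was 0.021 (SE 0.175, 95% interval -0.37 to 0.41, adjusted p = 0.983 with limma), so that the interval runs from 0.772 to 1.33 times the high-fat level. It was -0.17 without high-fat sample 1, which was the lowest array.

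Acsl5, found on mitochondria and the endoplasmic reticulum, was read by 2 probe sets that did not follow each other (r = -0.029 over the 6 arrays). The brighter (1386926_at) had 11.33, 11.68 and 11.61 in the probiotic samples, against 11.49, 12.30 and 10.99 in the high-fat samples, with the highest and the lowest value both in high-fat livers. Its difference was -0.056 (SE 0.300, adjusted p = 0.975 with limma), and leaving out high-fat sample 2 gave 0.30 and leaving out high-fat sample 3 gave -0.36. The dimmer (1397375_at) had 8.13, 7.79 and 8.11 in the probiotic samples, against 8.62, 8.49 and 8.49 in the high-fat samples. Every probiotic sample was below every high-fat sample, and the difference was -0.52 (SE 0.237, 95% interval -1.06 to 0.0094, unadjusted p = 0.0534, adjusted p = 0.728 with limma). It stayed below 0 under all 18 alternatives, between -0.58 and -0.34. Over the 6 arrays it correlated with the Actb gap at r = -0.866, as a description, and the dim Acsl1 probe set did so at r = -0.763. With the gap in the model their differences were -0.34 and -0.90. The gap itself separated the groups, so these correlations and differences cannot tell RNA quality from the treatment.

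**Figure D3:**
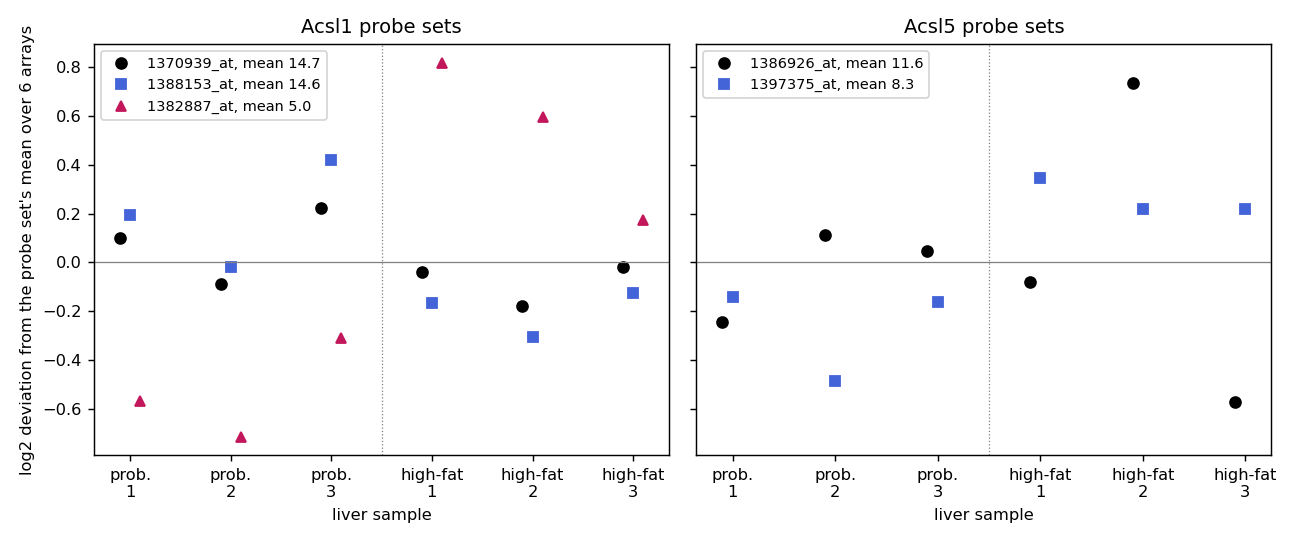
Deviation of each Acsl1 (left panel) and Acsl5 (right panel) probe set from its own mean over the 6 arrays, in log2 units, for probiotic samples 1 to 3 and high-fat samples 1 to 3. The bright Acsl1 probe sets move together (r = 0.943). The dim one, below the signal filter and near the floor of the scale, correlates with them at r = -0.455 and -0.682. The 2 Acsl5 probe sets share no pattern.

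**Figure D4:**
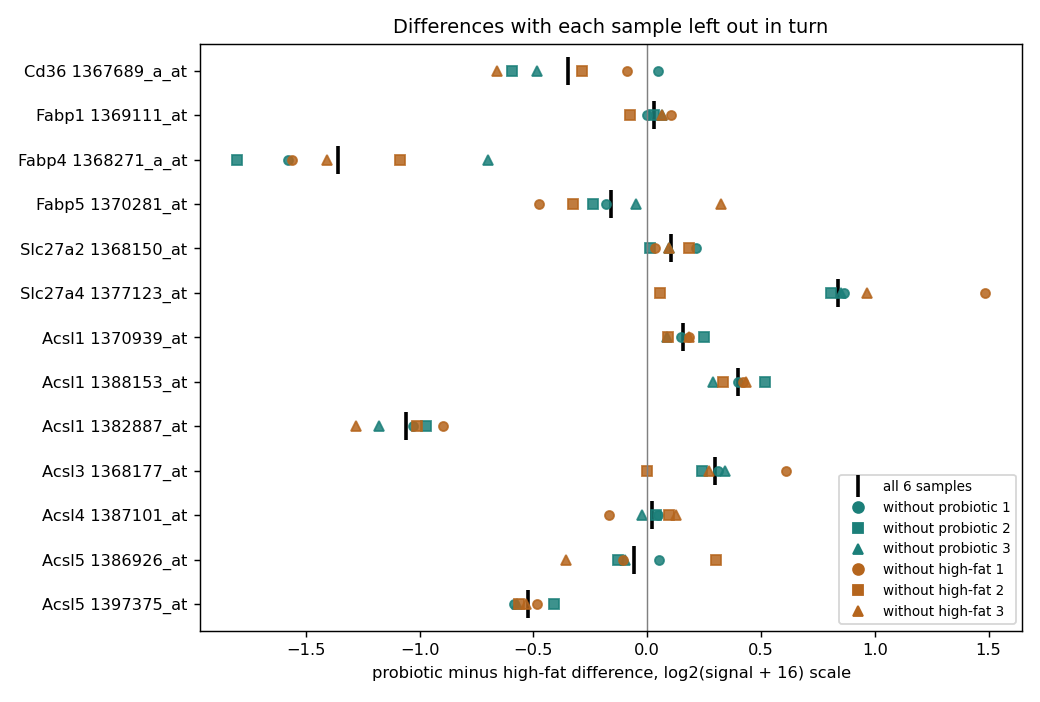
Probiotic minus high-fat difference of the 13 member probe sets with all 6 samples (black bar) and with each sample left out in turn (symbols), on the log2(signal + 16) scale. Slc27a4 depends on high-fat sample 2, Fabp5 on high-fat sample 3 and Fabp4 on probiotic sample 3. Fabp4, Slc27a2, Slc27a4, the Acsl1 probe sets and the dimmer Acsl5 probe set keep their sign with each sample left out.

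Genes around the same steps were read from 4 further lists, and no gene of any of them was called. Of 33 other genes of uptake, binding and activation, 27 were on the array and 23 were tested. Of these, 18 had higher and 5 lower means in probiotic livers, with a median difference of 0.15, and the groups did not overlap for 3 higher and 1 lower. Over all probe sets tested, 50.5% had a difference above 0, and the groups did not overlap for 6.02% higher and 6.7% lower. Acsm1, a medium-chain acyl-CoA synthetase of mitochondria, averaged 14.67 ± 0.163 in probiotic livers and 14.35 ± 0.146 in high-fat livers (SD, n = 3 each). The difference was 0.31 (adjusted p = 0.728 with limma). Acbd5, an acyl-CoA-binding protein of the peroxisomal membrane, had a difference of 0.47. The brain-type binding protein Fabp7 had 0.71, and the caveolar protein Cav1 had -0.86, with another Cav1 probe set at 0.11.

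Of 17 nuclear receptors and cofactors tested, 10 had higher and 7 lower means in probiotic livers, with a median of 0.16. Their groups did not overlap for 2 higher and 2 lower, beside 6.02% higher and 6.7% lower over all probe sets tested. Of the retinoid X receptors, partners of the PPARs, Rxra and Rxrb went opposite ways, and Rxrg had a difference of 0.042 (another probe set 0.0031). Rxra averaged 8.14 ± 0.445 in probiotic livers and 9.07 ± 0.0954 in high-fat livers (SD, n = 3 each), with no overlap and a difference of -0.94 (adjusted p = 0.726 with limma). Rxrb averaged 8.18 ± 0.119 in probiotic livers and 7.08 ± 0.842 in high-fat livers (SD, n = 3 each), also with no overlap and a difference of 1.10 (adjusted p = 0.726 with limma). The liver X receptor Nr1h2 had -0.45 and the coactivator Ppargc1b 0.63.

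Genes of the fates of an activated fatty acid were read beside 50.5% of all probe sets tested with a difference above 0 and 6.02% higher with no overlap. Of 20 PPARalpha targets of fatty acid catabolism tested, 16 were higher and 4 lower, with a median of 0.26 and 5 higher with no overlap. The counts used the brightest probe set of each gene, and other tested probe sets of the higher genes did not all have the same sign. Those of Cpt1a, Hadha and Pdk4 had -0.73, -0.49 and -0.31, and the 2 of Acot2 had -0.18 and 0.53. Hadha was among the 5 with no overlap. The mean deviation of this list from its genes' own means was 0.058, 0.49 and -0.13 in probiotic samples 1, 2 and 3, against -0.34, 0.095 and -0.17 in high-fat samples 1, 2 and 3. Probiotic sample 2 was the highest, and probiotic sample 3 lay below high-fat sample 2, so the groups overlapped. Those of smallest p were the peroxisomal genes Pex11a (0.69, another probe set -0.0026) and Ehhadh (0.84), the thiolase Acaa2 (0.29, another probe set 0.81) and the transcription factor Creb3l3 (0.34). Of 18 esterification and lipid droplet genes tested, 12 were higher and 6 lower, with a median of 0.062 and 4 higher with no overlap. Plin5, which couples lipid droplets to mitochondria, averaged 8.23 ± 0.170 in probiotic livers and 7.28 ± 0.242 in high-fat livers (SD, n = 3 each), with no overlap and a difference of 0.95 (SE 0.275, adjusted p = 0.726 with limma). The diacylglycerol acyltransferase Dgat2 had 0.33 (another probe set -0.093), the droplet protein Plin2 0.67 (another probe set 0.28) and the phosphatidate phosphatase Lpin2 0.92 (another probe set 0.27). Beside these shifts, immediate early genes averaged 3.00 log2 units above their own mean in probiotic sample 2, against -0.91 to -0.30 in the other 5 samples. All 6 blood and erythroid markers tested had higher means in probiotic livers, with a median difference of 0.70 and a summed signal of 32138 to 59983 in the probiotic samples, against 18886 to 28936 in the high-fat samples. The part of either in these shifts was not tested. With both number 2 samples left out, 14 of the 20 PPARalpha targets, 14 of the 18 esterification genes, 16 of the 23 other uptake and activation genes and 12 of the 17 nuclear receptors and cofactors had a difference above 0. With the Actb gap in the model these counts were 14 of 20 PPARalpha targets, 13 of 18 esterification genes, 16 of 23 other uptake and activation genes and 11 of 17 nuclear receptors and cofactors. The share of all probe sets above 0 was not taken under either setting, and the 50.5% is for all 6 samples without the covariate. The gap itself separated the groups, so the counts with it in the model cannot tell RNA quality from the treatment.

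**Figure D5:**
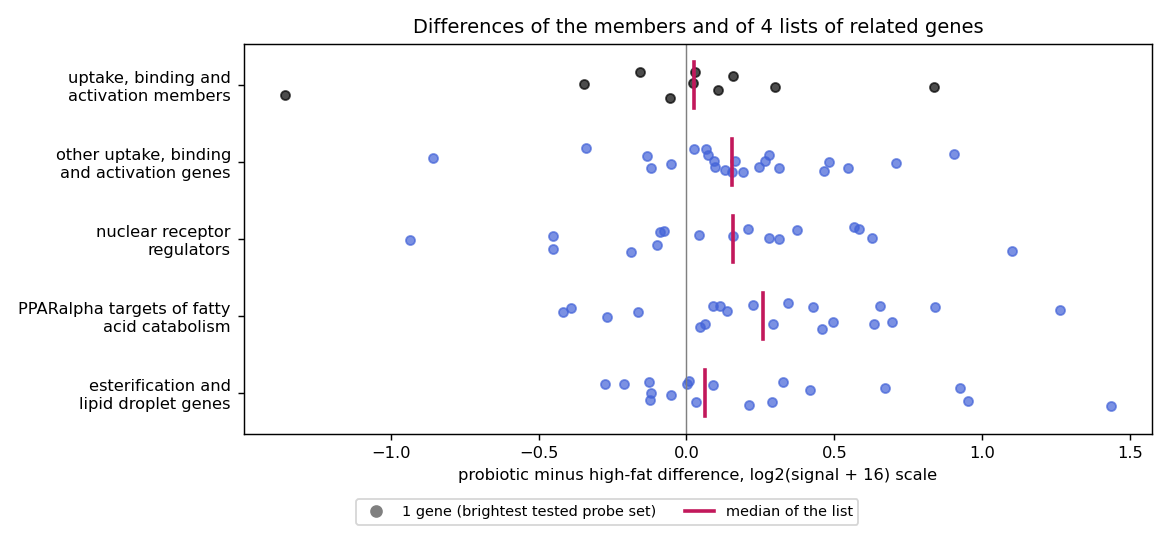
Probiotic minus high-fat difference of each gene by its brightest tested probe set (points) and the median of each list (vertical bars), on the log2(signal + 16) scale. The 10 members centre on 0.025, and the medians of the related lists lie between 0.062 and 0.26.

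The genes with the most similar signal to Cd36 over the 6 arrays, among 18624 other probe sets, were Slc22a15 (Pearson r = 0.985), Lyzl6 (0.983) and Dek (0.975). For Fabp4 they were Clic1 (0.996), Slc3a2 (0.995) and Impact (0.991). With 6 arrays and this many probe sets such values describe likeness alone.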

How the data were processed

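Total RNA from liver was extracted with Trizol, and biotinylated cRNA made from 8 ug went onto 1-colour Affymetrix arrays (per the labels' protocols). For each array the authors deposited a linear intensity per probe set. Which software computed it is not given in the sources used here. Trimmed of the highest and lowest 2%, the mean was 500.3 for all 6 arrays, as a global scaling would give.

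From the 31099 probe sets, log2(intensity + 16) was quantile normalized, 57 control probe sets were left out, and probe sets with a mean at or above the 40th percentile (18625) were tested with limma 3.58.1 in R 4.3.3 (lmFit, eBayes with trend, two-sided, Benjamini-Hochberg, threshold 0.05). Because 16 is added before the log2, folds of dim probe sets come out too small. Levels of different probe sets are not comparable. Gene names came from the platform annotation; 20758 of 20826 identifiers matched RefSeq (GRCr8) and 0 symbols changed. A gene is led by its brightest probe set, and from each related list the 4 genes of smallest p are named. Rxrg is named in addition, beside Rxra and Rxrb, and Cidec among the adipocyte markers. Cpt1a, Hadha, Pdk4 and Acot2 are named for their other probe sets. The number of arrays limits precision.

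The members, lists and tests were chosen with earlier results of these data known. The test was tried on simulated data. Alternatives covered normalization, filter, pseudocount (1 and 64), variance model, array weights, a replicate block, the Actb gap as a covariate, and samples left out. Gene list counts without both number 2 samples or with the covariate were added after seeing the data. Exact tests used SciPy 1.17.1 and figures matplotlib 3.10.9.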

Additional observations from a re-analysis of the deposited data

How the results depend on the processing

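The number of member probe sets called was 0 under all 18 alternatives. With normalization, filter, pseudocount, variance model, array weights, replicate block or covariate changed, or both number 2 samples left out, the count of non-overlapping member probe sets was 2 to 4 (4 with no filter, beside 11.6% of all probe sets, and 4 without both number 2 samples, beside 32.6%) and the median difference over members lay between -0.047 and 0.078, within 1 SD between replicates of 0.025 (SD 0.0757). Leaving out single samples gave 3 to 12 calls over all probe sets (4 with all samples, 12 when probiotic sample 1 was dropped and 9 when high-fat sample 1 was). It gave 3 to 6 non-overlapping member probe sets of 12, beside 20.5% to 27.8% of all probe sets. The 6 came without high-fat sample 1, where 24.8% of all probe sets did not overlap. The median difference over members was -0.028 to 0.11, highest without high-fat sample 3.

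The sign turned under some settings for Cd36, Fabp1, Fabp5, Slc27a2, Slc27a4, Acsl3, Acsl4 and the brighter Acsl5 probe set. For Fabp1 it was -0.038 with median centring, -0.086 without normalization, -0.048 with array weights, -0.061 with the covariate and -0.078 without both number 2 samples. For the brighter Acsl5 probe set these were 0.017 with median centring, 0.23 with array weights, 0.14 with the covariate and 0.23 without both. Without normalization Slc27a2 had -0.032 and Acsl4 -0.030. With the covariate Slc27a2 had -0.013, Slc27a4 -0.033 and Acsl3 -0.097, and Acsl3 had -0.061 without both. With single samples left out Cd36 ranged from -0.66 to 0.046, Fabp1 from -0.077 to 0.10, Fabp5 from -0.47 to 0.32, Slc27a4 from 0.056 to 1.48, Acsl3 from -0.000398 to 0.61, Acsl4 from -0.17 to 0.13 and the brighter Acsl5 probe set from -0.36 to 0.30. The cause was not tested. Fabp4, both bright Acsl1 probe sets, the dim one and the dimmer Acsl5 probe set kept their sign under all 18.

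Same-numbered samples correlated at 0.144, 0.027 and 0.0774 in their deviations from group means, so the numbers were not treated as pairs. With a replicate block 4 probe sets were called, 0 of them members, and the median difference over members was 0.025.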

Other observations

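By the brightest probe set, the SD over 3 samples was larger in the high-fat group for 6 of 10 genes, near the 50.7% of all probe sets tested. The median SD of the 10 genes was 0.173 in the probiotic group and 0.543 in the high-fat group, while over all probe sets tested it was 0.315 in the probiotic group and 0.326 in the high-fat group. For Slc27a4 the SD in the high-fat group was 23.9 times that in the probiotic group. There high-fat sample 2 had 5.56, against 8.40 and 7.42 in high-fat samples 1 and 3. In Fabp5, high-fat sample 3 had 10.60, against 8.995 and 9.28 in high-fat samples 1 and 2, so single arrays made these SDs large. The difference in spread was not tested.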
